A study of Homo sapiens with 13 samples.

Results

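The replication-dependent histone genes encode the bulk of the histones that package newly made DNA, and 70 of the 20033 protein-coding genes of chromosomes 1 to 22, X and Y in GENCODE release 44 belong to them by name: every gene whose symbol starts with H2AC, H2BC, H3C or H4C, and H1-1 to H1-6. They were 6 linker histone genes (H1), 17 H2A, 19 H2B, 13 H3 and 15 H4 genes. Accessible chromatin over them was read from ATAC-seq, in which a transposase cuts and tags open DNA, of H82 and H146. Both are established small cell lung cancer (SCLC) lines, with the genotype given as WT. The libraries came from untreated H82 (3) and H146 (4) cells and from cells of each line kept for 14 days in 100 nM of FHD-286, an inhibitor of the SMARCA4 and SMARCA2 ATPases (3 libraries a line). Each line had 1 pooled list of accessible regions, its atlas, made from untreated and treated libraries together, with the start and end of each region and no height, read count or library, so the effect of FHD-286 on the histone genes could not be measured. With 1 list a line there was no replicate spread, and every comparison below is a description of these 2 lists without a test. The lines also differ in number of libraries, and the depth of the libraries and the DNA copy number of the lines are unknown. None of these can be told apart from the line in any difference.

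The atlases held 206927 regions in H82 and 174093 in H146, of which 12652 and 10950 lay on chromosome 6 and 21373 and 14584 on chromosome 1, the chromosomes with most of the histone genes. For the label SCLC, marker genes were looked up for a region at most 1 kb from where transcription starts (the TSS). INSM1, CHGA, SYP, DLL3 and NCAM1 had one in both lines, and NEUROD1 had a region of 7865 bp in H82 and none in H146. POU2F3, a marker of another SCLC subtype, and YAP1, whose role as one the authors call questioned, also had a region in both lines. So did 75.4% of all protein-coding genes, and the presence of a region therefore says little about the label.

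Replication-dependent histone genes are transcribed in S phase, when the cell doubles its chromatin. They lie in clusters, carry no introns, and their messages end in a stem-loop bound by SLBP in place of a poly(A) tail. NPAT, a target of cyclin E and CDK2, gathers with transcription and processing factors on the clusters in a nuclear structure called the histone locus body. Core histones H2A, H2B, H3 and H4 form the nucleosome, and H1 binds the linker DNA between nucleosomes.

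Of the 70 genes, 64 had a promoter sequence in the RefSeq table used here (GRCh38.p14, 250 bases before to 50 after the TSS), all but H4C1, H4C3, H3C11, H3C12, H2AC12 and H2BC12L, and 7 of these windows are shown because they hold the words that set the histone types apart and because 3 of the 7 belong to genes that had no accessible region. Capitals mark TATAAA (the TATA box), CCAAT (bound by NF-Y) and ATTTGCAT (the octamer, bound by POU2F1), or the same words read on the other strand (TTTATA for the first, ATTGG for CCAAT, ATGCAAAT for the octamer). In these windows the marked words did not overlap. H2BC21 shares its window almost whole with the H2A gene H2AC20, which runs the other way. H2BC1, H1-6 and H4C6 are the genes without a region.
H2BC21 (chr1:149886633-149886932, minus strand): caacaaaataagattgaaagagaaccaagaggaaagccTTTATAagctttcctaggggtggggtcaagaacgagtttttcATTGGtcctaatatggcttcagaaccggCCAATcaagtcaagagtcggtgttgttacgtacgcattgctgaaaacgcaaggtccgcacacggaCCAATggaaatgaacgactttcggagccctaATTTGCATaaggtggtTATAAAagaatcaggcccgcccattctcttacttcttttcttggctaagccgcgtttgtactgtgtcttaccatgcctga
H2BC1 (chr6:25726527-25726826, plus strand): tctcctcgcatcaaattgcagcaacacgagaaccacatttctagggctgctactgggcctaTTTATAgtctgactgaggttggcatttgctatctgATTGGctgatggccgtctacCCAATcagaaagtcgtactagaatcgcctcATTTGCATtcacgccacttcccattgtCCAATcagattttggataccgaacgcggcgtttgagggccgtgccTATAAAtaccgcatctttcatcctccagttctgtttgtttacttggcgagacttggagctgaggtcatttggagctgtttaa
H3C1 (chr6:26020201-26020500, plus strand): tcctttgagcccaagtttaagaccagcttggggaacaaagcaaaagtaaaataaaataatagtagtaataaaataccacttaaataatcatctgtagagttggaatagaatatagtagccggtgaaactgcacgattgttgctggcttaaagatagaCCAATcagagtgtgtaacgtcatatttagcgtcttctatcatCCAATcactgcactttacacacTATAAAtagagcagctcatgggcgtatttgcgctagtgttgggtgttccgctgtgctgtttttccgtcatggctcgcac
H1-4 (chr6:26156079-26156378, plus strand): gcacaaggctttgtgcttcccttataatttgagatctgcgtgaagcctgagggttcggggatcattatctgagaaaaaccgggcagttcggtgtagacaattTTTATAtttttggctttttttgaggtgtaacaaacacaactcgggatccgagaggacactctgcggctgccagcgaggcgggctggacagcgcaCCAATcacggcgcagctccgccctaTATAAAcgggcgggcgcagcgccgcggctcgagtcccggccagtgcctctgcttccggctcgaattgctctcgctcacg
H1-6 (chr6:26108086-26108385, minus strand): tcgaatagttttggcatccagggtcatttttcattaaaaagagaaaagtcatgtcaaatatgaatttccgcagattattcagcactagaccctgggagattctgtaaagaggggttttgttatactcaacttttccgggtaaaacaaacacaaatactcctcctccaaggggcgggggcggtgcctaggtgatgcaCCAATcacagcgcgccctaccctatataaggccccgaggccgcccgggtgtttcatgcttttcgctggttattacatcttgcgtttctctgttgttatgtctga
H4C11 (chr6:27823842-27824141, plus strand): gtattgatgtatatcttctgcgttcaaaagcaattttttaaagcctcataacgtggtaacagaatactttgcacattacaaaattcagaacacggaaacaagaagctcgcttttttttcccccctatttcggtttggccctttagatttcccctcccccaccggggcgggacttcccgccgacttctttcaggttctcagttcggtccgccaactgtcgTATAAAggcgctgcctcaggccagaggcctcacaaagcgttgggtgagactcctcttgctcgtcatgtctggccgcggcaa
H4C6 (chr6:26240143-26240442, plus strand): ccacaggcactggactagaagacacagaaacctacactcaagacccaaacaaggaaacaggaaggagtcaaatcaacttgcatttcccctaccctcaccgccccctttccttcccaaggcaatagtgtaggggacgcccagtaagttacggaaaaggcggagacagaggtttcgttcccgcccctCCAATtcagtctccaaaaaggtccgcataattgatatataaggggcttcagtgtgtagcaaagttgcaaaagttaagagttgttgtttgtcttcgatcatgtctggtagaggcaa

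The words differed between histone types. CCAAT stood in every window of the H1 (6), H2A (16), H2B (18) and H3 (11) genes and in 3 of 13 H4 windows, which made 54 of 64 (84.4%) beside 36.6% of the 15365 protein-coding windows. The octamer was found in 14 of 18 H2B windows and 11 of 16 H2A windows and in no H1, H3 or H4 window (25 of 64, 39.1%, beside 1.71%). TATAAA was spread over all types, in 3 of 6 H1, 12 of 16 H2A, 12 of 18 H2B, 8 of 11 H3 and 7 of 13 H4 windows (42 of 64, 65.6%, beside 9.42%).

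**Figure D1:**
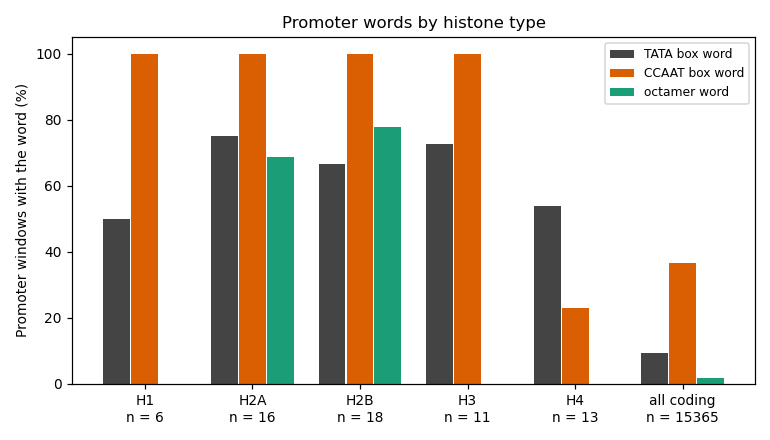
Share of promoter windows (%, bars from 0) that hold the TATA box word, the CCAAT box word or the octamer word, on either strand, by histone type and over all protein-coding genes. CCAAT is in 100% of H1, H2A, H2B and H3 windows and in 23.1% of H4 windows, and the octamer is seen in H2A (68.8%) and H2B (77.8%) windows and in none of the other types.

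Taking in each window the copy before the TSS that is nearest to it, and the TSS as base 0, the median first base was at -31 for TATAAA. It lay between -33 and -28 in the H3 genes that had it. The farthest copies taken were at -206 in H2A, -220 in H2B and -250 in H4 genes. Those at -206 and -220 stood on the other strand. CCAAT had its median at -77 in H2B, -67.5 in H2A, -54 in H1 and -53 in H3 genes. The octamer lay at a median of -49 in H2B genes (-149 to -45) and of -192 in H2A genes (-208 to -98). Windows of H2A and H2B genes that face each other overlap, so these counts share letters. TTTGGCGC and TTTCCCGC, 2 forms of the E2F word, were present in 0 and 1 of the 64 windows, beside 0.924% and 2.27% of all windows. Histone promoters had a median GC content of 43.7%, and all protein-coding windows one of 63.7%.

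In each line 63 of the 70 histone genes (90.0%) had an accessible region within 1 kb of the TSS, and they were the same 63 genes. Over all protein-coding genes the share was 80.5% in H82 and 77.2% in H146, with 75.4% in both lines. In all 63 cases the region held the TSS base itself. No histone gene had a region in 1 line only, where 5.1% of all genes had one in H82 only and 1.86% in H146 only. The remaining 7 had none in either line, a class that held 17.7% of all genes. By type, the genes with a region were 4 of 6 for H1, 16 of 17 for H2A, 17 of 19 for H2B, 13 of 13 for H3 and 13 of 15 for H4.

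The genes with no region were H2AC1 and H2BC1, H1-1, H1-6, H4C6, H4C7 and H2BC12L. H2AC1 and H2BC1 form a head-to-head pair at the outer end of the chromosome 6 genes and encode histone variants known from the testis. Their nearest region was 5793 bp from the H2AC1 TSS in H82 and 5786 bp in H146, a short region of 293 and 326 bp at no histone gene. H1-6, the testis linker histone H1t, lay 2875 bp from the region of its neighbour H4C3 in both lines. H1-1, another linker histone gene, lay 2419 bp in H82 and 2368 bp in H146 from the region over H3C1 and H4C1. H4C7 lay 2084 bp in H82 and 1784 bp in H146 from the region over H3C7 and H2BC9, and H4C6 lay 2827 bp in both lines from a region of 849 bp in H82 and 932 bp in H146. H2BC12L, on chromosome 21 and apart from any cluster, was 7185 bp from a region in H82 and 16380 bp in H146.

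For 3 of the 7 (H1-1, H1-6 and H4C7) the nearest region was thus that of another histone gene, and for the other 4 it was not. Within 10 kb to either side of the TSS, regions covered 23.9% of the bases in H82 and 26.5% in H146 around H1-1, 26.01% and 32.6% around H4C7, and 12.4% and 8.74% around H1-6. Of the other 4, H4C6 had 23.3% in H82 and 25.6% in H146, H2AC1 and H2BC1 each 3.19% and 1.63%, and H2BC12L 1.20% and 0%. The promoter words were found with and without a region. Of the 6 such genes with a window, 4 had TATAAA, 5 had CCAAT and 2 (H2AC1 and H2BC1) had the octamer, beside 38, 49 and 23 of the 58 genes with a region. H2BC1, shown above, held a TATA box word at -32, CCAAT at -77 and the octamer at -104, and no region lay within 1 kb of it.

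H2BC6 is a special case. Its gene record starts at chr6:26172059, where a region of 1937 bp in H82 and 2180 bp in H146 was found, but the start of its MANE Select transcript, the isoform chosen as its standard, lies 11702 bp further on at position 26183761. No region lay within 1 kb of that start and none covered the transcript in either line. The promoter window of H2BC6 counted above lies at the MANE start. By the MANE start 62 of the 70 genes had a region in both lines. MANE and gene starts were the same base for 63 genes and differed by over 100 bp for 4 (H2BC6, H3C12, H3C6 and H4C8).

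**Figure D2:**
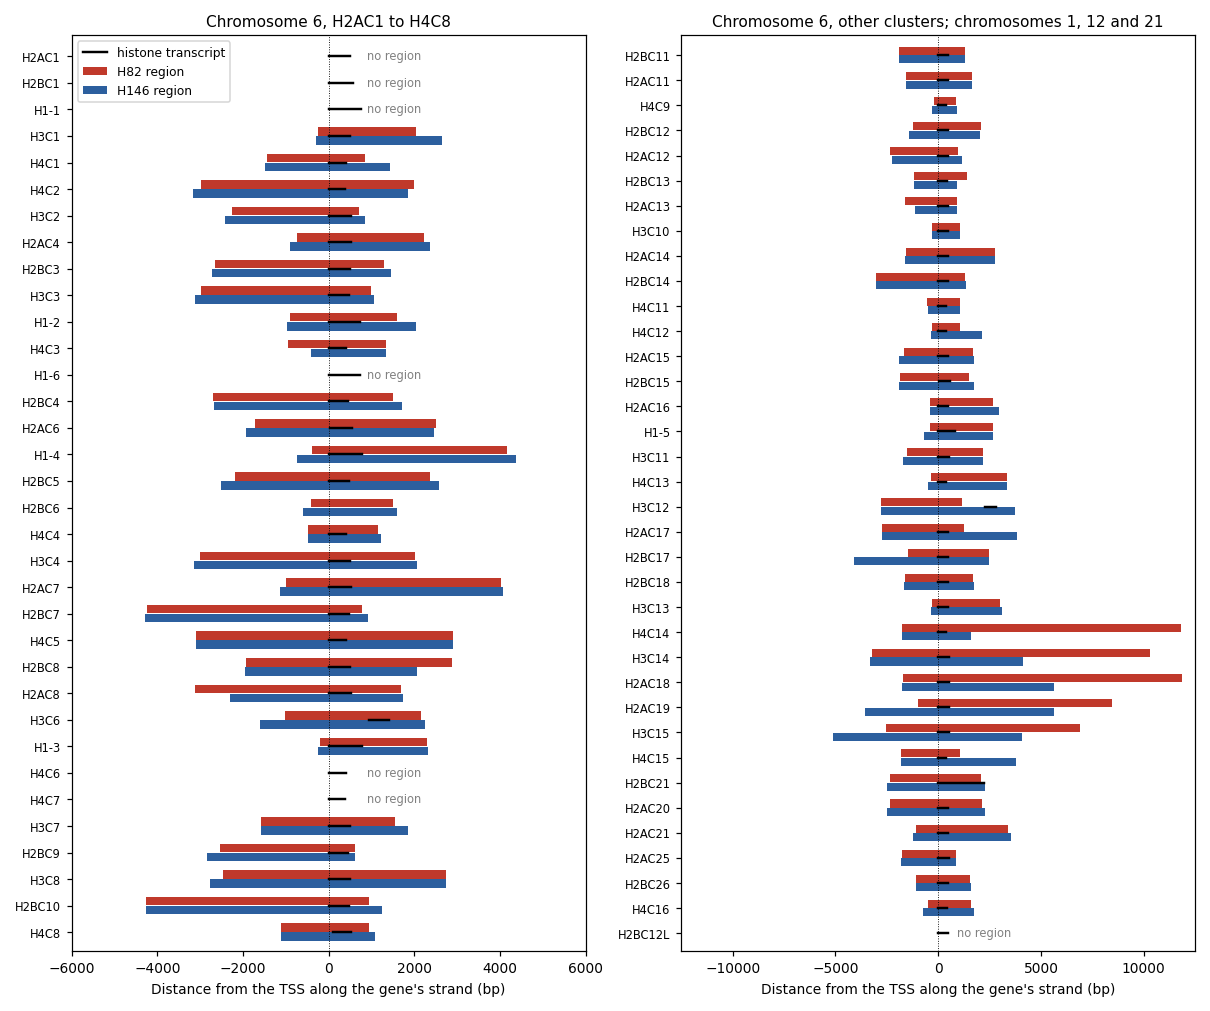
Region at the TSS of each of the 70 histone genes in H82 (red) and H146 (blue), drawn from its edge before the TSS to its edge past it (bp along the gene's strand), with the MANE transcript in black (that of H2BC6 lies outside the panel). The right panel has the wider scale, the 7 genes without a region are marked, and neighbours that lie in 1 merged region show the same region shifted by the distance between them.

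The regions were wide, and most held the whole MANE transcript. In H82 they spanned a median of 3366 bp (quartiles 2630 and 4517, range 1050 to 13565), and in H146 one of 3615 bp (quartiles 2974 and 5068, range 1248 to 9202), beside 1767 and 1699 bp over all protein-coding genes with a region in that line. The histone medians lay above 85.9% of all TSS regions in H82 and 90.4% in H146. Counted along the gene from the TSS, the median edges lay at -1614 and 1686 bp for H82 and at -1777 and 2019 bp for H146. Those of all protein-coding genes whose region held the TSS base lay at -709 and 1014 bp and at -680 and 989 bp. By type the median widths were 2783.5 and 3178 bp for H1, 4081.5 and 4197 bp for H2A, 3948 and 4020 bp for H2B, 3680 and 3861 bp for H3, and 2271 and 2479 bp for H4, in H82 and H146. H4 genes, which mostly stood alone in their region, had the lowest median in both lines and H2A genes the highest.

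Wide regions often held the starts of neighbours. Where a region held the TSS of 1 coding gene only, the median was 2084 bp over 15 histone genes in H82 and 2475 bp over 16 in H146, beside 1813 and 1731 bp over all genes of that kind. Merging of sites within 500 bp by the authors adds to the width of crowded loci, and its part was not tested. In the 2 kb centred on the TSS, the median histone gene was covered to 99.8% in H82 and 100% in H146, beside 64.9% and 63.0% for all genes (all genes counted, with or without a region).

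**Figure D3:**
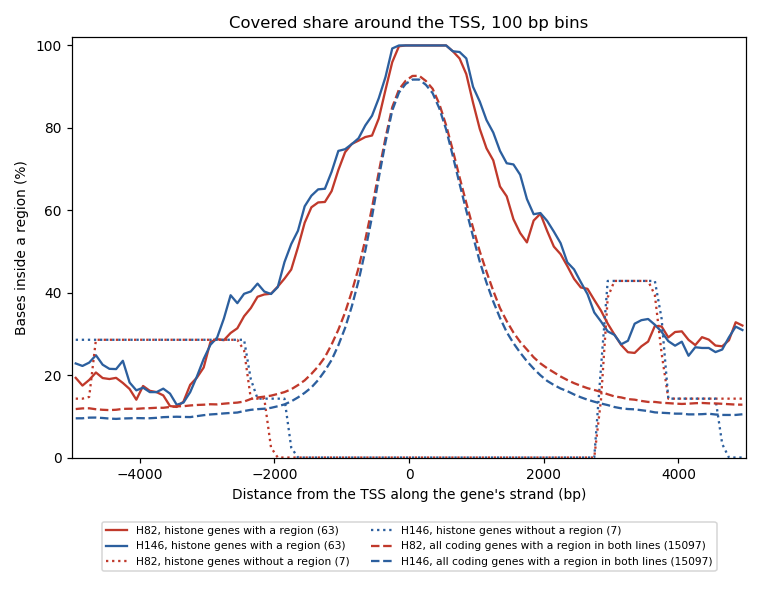
Share of bases (%) inside a region in bins of 100 bp from 5 kb before to 5 kb past the TSS, for the 63 histone genes with a region, the 7 without, and all protein-coding genes with a region in both lines. In the bin that starts 1000 bp past the TSS the histone genes stand at 79.7% in H82 and 86.4% in H146, and all genes at 50.02% and 47.5%.

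The transcripts are short and lay almost all inside the open region. All 70 MANE transcripts have 1 exon and are 386 to 2224 bp long (median 487 bp). Of the 63 genes with a region, 61 had the whole transcript inside regions in H82 and 62 in H146. The exceptions were H2BC6 in both lines and H2BC21, the gene of the longest transcript, of which 94.6% was covered in H82. Over all protein-coding genes with the TSS inside a region, its downstream edge lay at a median of 1014 bp (H82) and 989 bp (H146). That is beyond the median length of the histone transcripts. Coverage of stretches of like length past the TSS of other genes was not measured. For genes alone in their region, with the MANE start within 100 bp of the gene start, the region ran a median of 817 bp past the transcript end in H82 (12 genes, 465 to 2489 bp) and 1315 bp in H146 (13 genes, 530 to 3399 bp). On the other side its edge was at a median of -504.5 bp in H82 and -521 bp in H146. H1-3, a linker histone gene, had the longer side downstream, with edges at -205 and 2298 bp in H82 and at -261 and 2318 bp in H146.

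The 3′ end signal of these genes also lay in open chromatin. The histone stem-loop, 16 bases whose arms pair and which SLBP binds in the message, was found 23 to 68 bases (median 36) after the stop codon of 69 of the 70 genes, the exception being H2BC12L. It is printed from the hg38 reference on the strand of the gene, all letters in capitals, in the forms shared by more than 1 gene.
Form of 40 genes of all types but H4: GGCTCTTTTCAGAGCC
Form of 10 H4 genes: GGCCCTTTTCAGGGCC
Form of 9 genes (H1, H2A, H2B and H3): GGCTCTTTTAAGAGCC
Form of 4 H4 genes (H4C9, H4C12, H4C14 and H4C15): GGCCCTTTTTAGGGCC

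The H4 forms printed differed from the other printed forms by a letter in each arm. The remaining 6 genes (H2AC11, H2AC15, H2AC20, H2BC10, H3C6 and H4C13) each had a form of their own. In both lines the stem-loop lay inside a region in 62 of the 63 genes with a TSS region, and the exception was H2BC6. In most of these short genes the stem-loop lies close to the TSS. How often points as near to the TSS of other genes lay inside a region was not counted.

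The genes fell into 5 clusters and 2 single genes, taking a gap of over 300 kb between starts as a break. Clusters differed in the share of genes with a region. The chromosome 6 cluster from H2AC1 to H4C8 (chr6:25726562-26285638) had 28 of 34, and all other clusters had every gene: 16 of 16 from H2BC13 to H2BC17 (chr6:27807929-27893425), 5 of 5 from H2BC11 to H2AC12 (chr6:27132795-27147106), 11 of 11 from H2BC18 to H2AC21 (chr1:149812373-149887965) and both genes of the pair H2AC25 and H2BC26 on chromosome 1. H4C16, alone on chromosome 12, had a region of 2084 bp in H82 and 2479 bp in H146. So 6 of the 7 genes without a region were in the longest cluster, which spans 559 kb.

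That cluster was also the least densely covered. Regions covered 14.5% of its bases in H82 and 14.2% in H146, and 76.7% and 81.95% of the covered bases were in the 18 regions at histone starts. Its span takes in the long stretch from the H2BC1 start (chr6:25726777) to the H1-1 start (chr6:26017787). None of the other histone genes studied starts there, and the gap fell just under the 300 kb limit. Coverage of the cluster without this stretch was not measured. The compact chromosome 1 cluster from H2BC18 to H2AC21, 75.6 kb long, was covered to 47.2% in H82 and 43.8% in H146. The cluster from H2BC11 to H2AC12 (14.3 kb) was covered to 39.3% and 42.3%, and that from H2BC13 to H2BC17 (85.5 kb) to 30.2% and 33.2%. Histone regions made up 83.0% to 94.4% of the covered bases of these 3 clusters. Median widths of the TSS regions were 4472 and 4772 bp in the chromosome 1 cluster, 3948 and 4020 bp from H2AC1 to H4C8, 3366 and 3615 bp from H2BC13 to H2BC17, and 3219 and 3220 bp from H2BC11 to H2AC12, in H82 and H146.

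Most histone genes shared their region with another. In H82 the 63 starts lay in 37 regions, 15 with 1 histone start, 18 with 2 and 4 with 3, and in H146 in 38 regions, 16 with 1, 19 with 2 and 3 with 3. Thus 48 histone genes in H82 (76.2%) and 47 in H146 (74.6%) shared a region with another histone gene, beside 25.1% and 25.3% of all protein-coding genes whose TSS lay in a region and that shared it with any other. The median width was larger with each further histone start, going from 2084 to 3338 to 4753 bp in H82 and from 2475 to 3615 to 5201 bp in H146.

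Sharing differed between the histone types. All 16 H2A genes with a region and 16 of 17 H2B genes shared it, in both lines, as did 11 of 13 H3 genes and 2 of 4 H1 genes. Of the 13 H4 genes 3 shared in H82 and 2 in H146. H4C1 and H4C13 shared theirs with H3C1 and H3C11 in both lines, and H4C14 shared in H82 only. Sharing depends on the distance to the next start and on the merging of sites within 500 bp. Neither the types nor the histone genes and all genes were matched for that distance.

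Many H2A and H2B genes stand as divergent pairs around a short shared promoter. There were 12 such pairs, which left 12 H2A and H2B genes in none, with starts 170 to 251 bp apart (median 234.5 bp), and in 11 of them both starts lay in 1 region in both lines. The stretch from the end of one MANE transcript to the end of the other was covered in full for these 11 in both lines, but for H2BC21 and H2AC20 in H82 (95.97%). H2AC15 and H2BC15, the closest pair at 170 bp, lay in a region of 3366 bp in H82 and 3615 bp in H146. H2BC12 and H2AC12, the most distant at 251 bp, lay in one of 3310 and 3429 bp. The pair H2AC1 and H2BC1, 215 bp apart, was the one without. The authors merged sites within 500 bp, more than any of these distances, so open starts of a pair would nearly always share a region. Other head-to-head pairs of coding genes at this spacing were not counted.

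Regions over 3 histone genes brought further types together. H3C4, H2AC7 and H2BC7 lay in 1 region of 5034 bp in H82 and 5201 bp in H146, H2BC21, H2AC20 and H2AC21 in one of 4472 and 4772 bp that also held the start of BOLA1, and H3C12, H2AC17 and H2BC17 in one of 3957 and 6551 bp. The MANE start of H3C12 is 2280 bp past its gene start. There H82 had a separate region of 1921 bp, where in H146 the region of 6551 bp went on, so both lines had accessible chromatin at that start.

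The widest of all was a merge seen in H82. A region of 13565 bp (chr1:149830889-149844453) held H4C14, H3C14 and H2AC18. In H146 the same stretch held a region of 3399 bp at H4C14 and one of 7433 bp over H3C14 and H2AC18. H4C14 was for this reason the 1 histone gene with widths 2 times or more apart (3.99 times), beside 10.1% of all genes with a region in both lines. Next to it, H2AC19 and H3C15 lay in a region of 9454 bp in H82 and 9202 bp in H146, with its upstream edge at -991 bp from the H2AC19 start in H82 and at -3565 bp in H146. H4C15, the mirror of H4C14 in this cluster, had 2840 bp in H82 and 5595 bp in H146, with the upstream edge at -1800 bp in both.

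These genes are near copies of each other. The promoter windows of H4C14 and H4C15 were 100% identical, those of H2AC18 and H2AC19 99.3% and those of H3C14 and H3C15 97.4%, and on chromosome 6 those of H4C11 and H4C12 were 98.3% identical. Among histone promoters with a sequence no other pair was above 86.8% (H2AC13 and H2AC14). Reads from identical stretches cannot be assigned to 1 copy, and the aligner's default settings keep 1 of several equal placements, so values at these 8 genes are uncertain and may mix copies. Without the 8 genes, 55 of 62 had a region in both lines. The 8 were picked by their promoter windows alone. Likeness within transcripts was not measured and genes without a window could not be compared, so such reads may also touch other histone genes.

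Between the lines the regions were alike, and most were somewhat wider in H146. The region was wider in H146 for 50 of the 63 genes (79.4%), wider in H82 for 12, and of equal width for 1, where 52.2% of all protein-coding genes with a region in both lines were wider in H146. Genes in 1 merged region share a value: counted once, 29 of 38 pairs of regions were wider in H146, 8 in H82 and 1 was equal. The median log2 ratio of H82 to H146 width was -0.07 for the histone genes and -0.01 for all genes, and the median difference over the 38 pairs was -174 bp.

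By chromosome, 41 of the 49 genes of chromosome 6 and 8 of the 13 of chromosome 1 were wider in H146, beside 51.6% of all genes of chromosome 6 and 36.1% of those of chromosome 1. Since wide regions may behave otherwise than narrow ones, genes with a mean width of 2 to 6 kb were also taken alone, a choice made after seeing the widths. There 47 of 52 histone genes were wider in H146, beside 49% of all genes. These counts by chromosome and by width take each gene of a merged region singly. The chromosome 1 genes also include near copies, whose values are uncertain. H146, the line with the smaller atlas, thus had the wider region at most histone genes.

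**Figure D4:**
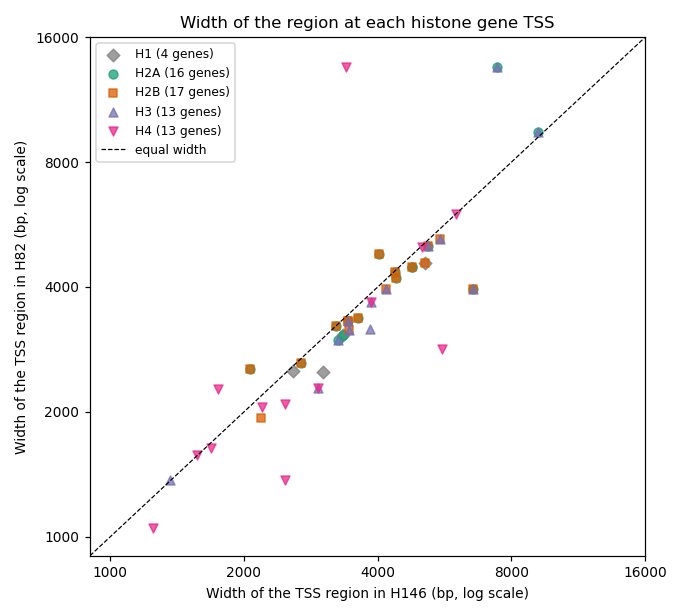
Width of the region at the TSS (bp, log scales) in H146 (horizontal) against H82 (vertical), 1 point for each of the 63 histone genes with a region, by type, with the line of equal width dashed. Points of genes in 1 merged region lie on top of each other, 50 of 63 points lie below the line, and the H4 point far above it is H4C14 at 3399 bp in H146 and 13565 bp in H82.

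For most genes the 2 lists nearly matched. Widths were within 10% of each other for 41 of the 63 genes (65.1%), beside 43.6% of all genes, and for 23 of the 38 pairs of regions. A limit of 10% allows more bp in the wider histone regions, and this share was not compared among genes of like width. At least 1 edge fell on the same base in both lines for 21 of the 63 genes, beside 26.9% of all genes. H4C5, an H4 gene of chromosome 6, had both edges on the same base in both lines, at -3110 and 2900 bp, in a region of 6011 bp. The pair H2BC11 and H2AC11 differed by a single base (3219 bp in H82, 3220 bp in H146).

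Of the narrowest regions some were close between lines and some were not. H4C9 had the narrowest in both, 1050 bp in H82 and 1248 bp in H146. H3C10 followed with 1368 and 1365 bp and H4C11 with 1571 and 1569 bp. H4C12, the near copy of H4C11, had 1368 bp in H82 and 2471 bp in H146, and so was narrow in H82 and not in H146.

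The 12 genes wider in H82 were few and in part the near copies: H4C14, H3C14, H2AC18, H2AC19, H3C15 and H4C11. The others were H2BC8 and H2AC8 (4810 bp in H82, 4020 bp in H146), H2BC13 and H2AC13 (2533 and 2064 bp), H4C3 (2271 and 1748 bp) and H3C10. The pair H2BC8 and H2AC8 ended 2878 bp past the H2BC8 start in H82 and 2062 bp in H146, while the other edge was at -1931 and -1957 bp. For H4C3 the downstream edge was the same base in both lines, 1327 bp past the TSS, and the upstream edge was at -943 bp in H82 and -420 bp in H146.

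For genes of related function, other histone genes, listed by name as replication-independent, were looked at first. Whether each gene of the list is expressed outside S phase was not checked. Of the 26 genes so listed 14 had a region in both lines, 10 in neither (H1-7, H2AJ, H2AP, H2BW1, H2BW2, H2BN1, H3-4, H3-5, H3Y1 and H3Y2, several of them known from the testis), H2BK1 in H82 only (217 bp) and H2AB2 in H146 only (1689 bp). Their regions had medians of 1920 bp (H82) and 2004 bp (H146). Of the genes for histone gene transcription, message processing and histone chaperones, 37 of 37 had a region in both lines, with medians of 1848 and 1655 bp. Of these, chosen for their roles after the values were seen, NPAT had 2139 bp in H82 and 2187 bp in H146, SLBP 2151 and 2390 bp, and HINFP, which activates H4 genes, 1465 and 1528 bp. CHAF1A, a subunit of the chaperone that places new H3 and H4 at the replication fork, had 4746 bp (H82) and 935 bp (H146). Counts for these lists stand beside those of the histone genes as a description.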

How the data were processed

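ATAC-seq regions of H82 and H146 were analysed. The authors trimmed paired reads with Trim Galore 0.4.4, aligned them to hg38 with Bowtie2 2.3.4, removed duplicates with Picard, called regions per library with MACS2, removed blacklisted regions and merged those of all libraries of a line within 500 bp. The deposited values are region starts and ends in bp. The number of unused columns with values per library was 0. The study had 3 H146 controls in 1 batch and 1 control with the 3 treated samples in another, which the pooled atlas does not separate. Depth per library is unknown and how reads with several placements were treated beyond the aligner's defaults is not given in the sources used here.

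Members followed the symbols in GENCODE 44. The members and lists were chosen with earlier results of these data known. The TSS was the gene's 5′ end. A region counted within 1 kb of it, the nearest being taken. Clusters were split at gaps over 300 kb. Named were genes lacking a region in a line, those whose widths differed 2 times or more, the 3 widest and 3 narrowest regions per line, regions with 3 or more histone starts, and examples of head-to-head pairs (starts within 500 bp). Other genes named, the forms of the stem-loop, the transcript and edge measures and the width class were chosen after their values were seen. Words were matched exactly on both strands, stem-loops within 200 bp of the stop codon, and promoters aligned globally with Biopython 1.88 (match 1, mismatch -1, gap -2 and -0.5). Python 3.11.15, NumPy 2.4.6, SciPy 1.17.1 and Matplotlib 3.10.9 were used, and the overlap code was checked on made-up regions. Alternatives were the window, the TSS, a lowest width of 500 bp, near copies and single clusters left out. Not every marker gene looked at is reported here.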

Additional observations from a re-analysis of the deposited data

How the results depend on the processing

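Under 13 alternative settings, the median width of the TSS regions ranged from 3264.5 to 3680 bp in H82 and from 3429 to 3861 bp in H146, the share of histone genes wider in H82 from 10.9% to 25.7%, and the share that shared a region between 73.1% and 82.9% (H82) and between 72.3% and 80.0% (H146). The median covered share in H146 was 100% and the share with a region in 1 line only was 0% in each setting. Both stood at a limit, and the window does not enter the covered share or the sharing, so these say little about stability. The share of histone genes with a region within 1 kb of the TSS moved to 97.2% (35 of 36) in H82 and 97.2% in H146 without the chromosome 6 cluster from H2AC1 to H4C8, the cluster that holds 6 of the 7 genes without one, and was 87.0% to 95.7% in the other settings. No paired analysis was possible because the atlases hold 1 list per line and no value per library, and for the same reason no replicate could be left out. Read depth limits which sites were called, and it is unknown here.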

Other observations

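Of 14 histone pseudogenes within 300 kb of a replication-dependent histone gene, 11 had a region within 1 kb of their start in both lines, and for 9 of these it was the region of a functional gene. H2BC27P (2858 bp in H82, 2524 bp in H146) and H3C9P (2233 and 2266 bp) had regions at no functional histone gene. H2BC2P, H2AC2P and H2AC3P had none in either line, and H2BC2P and H2AC2P lay 5385 and 5720 bp from H2BC1, which had none either.

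Other protein-coding genes lie between the histone genes of the H2AC1 to H4C8 cluster. SLC17A1, SLC17A2, SLC17A3 and SLC17A4, a family of membrane transporters between H2BC1 and H1-1, had no region within 1 kb of the TSS in either line. HFE, an iron regulator, had one of 943 bp in both lines, and TRIM38 one of 1433 bp in H82 and 581 bp in H146.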
